A study of Mus musculus with 18 samples.

Results

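The transcripts of 10 genes that set passage through the G1 phase of the cell cycle were followed in mouse embryonic stem cells (ESCs) leaving naive pluripotency: the D-type cyclins Ccnd1, Ccnd2 and Ccnd3, the E-type cyclins Ccne1 and Ccne2, the kinases Cdk4 and Cdk6, and the inhibitors Cdkn1a, Cdkn1b and Cdkn2a. They were listed by name and matched by Ensembl identifier among 53801 genes of the deposited table. All 10 passed the filter on low counts that left 18469 genes for testing. The study asked how keeping plasma membrane tension high affects early differentiation. Bulk RNA was sequenced from wild-type (WT) cells of the ES line E14TG2a and from iEZR_CA cells, which are E14 cells carrying a PiggyBac transgene that makes a phosphomimetic, constitutively active ezrin when doxycycline is given, together with mCherry. Ezrin ties the plasma membrane to the actin cortex. Each line was sampled in 2i+LIF medium (ESC, 0 h) and again 24 h (T24) and 48 h (T48) after the change to N2B27, a medium without the MEK inhibitor PD0325901, the GSK3 inhibitor CHIR and LIF. Doxycycline was added to iEZR_CA cells roughly 16 h before the change and none is stated for WT cells, so transgene, drug and line cannot be told apart in any comparison of the lines. There were 3 libraries in each of 6 groups, described by the study as biological replicates, with 10940752 to 33276622 reads on genes per library.

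In G1, D-type cyclins bind and activate CDK4 and CDK6, and E-type cyclins bind and activate CDK2. Both kinds of kinase phosphorylate the retinoblastoma protein, which frees E2F factors to switch on genes of DNA replication. Inhibitors of the CIP/KIP family (Cdkn1a encodes p21, Cdkn1b encodes p27) bind cyclin-CDK complexes, and those of the INK4 family (Cdkn2a encodes p16) bind CDK4 and CDK6. Cdkn2a also encodes p19ARF, which acts on MDM2 and p53, from another first exon, and the single gene count used here covers both products. Mouse ESCs are known for a short G1 phase that is largely driven by cyclin E and CDK2, for low D-type cyclin activity in naive medium, and for a G1 phase that is rebuilt as they differentiate. ERK signaling, which the MEK inhibitor blocks, is a textbook inducer of Ccnd1.

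The labels held in the data. Ezr, which counts the endogenous gene together with any transgene reads that align to it, stood at 11763 ± 277 normalized counts (SD, n = 3) in WT ESCs and 24819 ± 499 in iEZR_CA ESCs, at 7711 ± 175 and 20793 ± 564 at T24, and at 10096 ± 413 and 16215 ± 165 at T48. Normalized counts are reads per gene divided by the DESeq2 size factor of the library. The pluripotency genes Pou5f1 and Sox2 were present in all groups. Summed TPM (a transcript level corrected for gene length and library size) of 7 naive markers went from 4448 to 1328 and 108 over the 3 stages in WT cells and from 3995 to 2475 and 572 in iEZR_CA cells, and that of 5 post-implantation markers went from 99.9 to 1330 and 2385 in WT cells and from 111 to 469 and 1236 in iEZR_CA cells. Dnmt3b gave most of the post-implantation sum at T48, with 1726 TPM in WT and 775 in iEZR_CA cells. At T48 1 of these 5 markers, Otx2, was higher in iEZR_CA cells (log2 0.74 ± 0.04) and 3 were lower, where 31.0% and 30.1% of all genes were. The stage reached, by these markers, therefore differed between the lines at matched hours, and its part in each difference described here was not tested. Markers of other cells stayed at a summed TPM of 16.4 or less per list, but moved with stage and line. Summed TPM of 7 fibroblast markers went from 1.25 to 2.61 and 15.6 over the stages in WT cells and from 1.89 to 2.24 and 10.7 in iEZR_CA cells, with Dcn at 5.74 and 8.42 TPM at T48 and 3 of 7 at no more than 3 counts in every ESC library. That of 2 neural markers went from 4.50 to 15.7 and 16.4 in WT and from 2.94 to 8.29 and 10.5 in iEZR_CA cells, most of it Sox1. That of 7 primitive endoderm markers was 7.43, 3.87 and 7.69 in WT and 16.0, 8.88 and 6.26 in iEZR_CA cells, where Dab2 alone had 12.2 TPM in ESCs. That of 4 trophectoderm markers was 7.63, 6.13 and 5.55 in WT and 9.96, 13.9 and 16.1 in iEZR_CA cells. The part of these markers in the results was not tested. In bulk samples, fewer cells that express a gene and less RNA per cell cannot be told apart.

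Of the 10 genes, 8 differed between the lines in ESCs and passed an adjusted p of 0.05 by edgeR's quasi-likelihood test, against 54.5% of all genes tested, with 3 above WT (26.4% of all genes) and 5 below (28.1%). At T24 8 passed, against 60.9%, with 4 above (30.8%) and 4 below (30.1%), and at T48 9 passed, against 61.1%, with 4 above (31.0%) and 5 below (30.1%). With library sizes set by the spike-in RNA 4 passed in ESCs, 1 above and 3 below, with 6 at T24 and 7 at T48, and of all genes 5506, 7129 and 7229 of 18469 did. With 10 genes these shares are not read as a property of G1 regulators. A single gene, Ccnd2, differed more than 2-fold at each stage, where 11.9%, 14.9% and 16.1% of all genes did. The median log2 difference of the 10 genes was -0.10, -0.00 and -0.03 in the order of the stages, beside -0.01, -0.00 and 0.00 over all genes. The members thus did not move one way. Ccnd1, Ccnd2, Ccne1 and Cdk4 were lower in iEZR_CA cells at every stage, Cdkn1a and Cdkn2a were higher at every stage, and Ccnd3, Ccne2, Cdk6 and Cdkn1b were called at some stages only, Cdk6 and Cdkn1b among them with different signs at different stages. Replicates were tight, with a common biological coefficient of variation of 2.98%, so that changes under 0.1 on the log2 scale can pass the test.

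**Figure D1:**
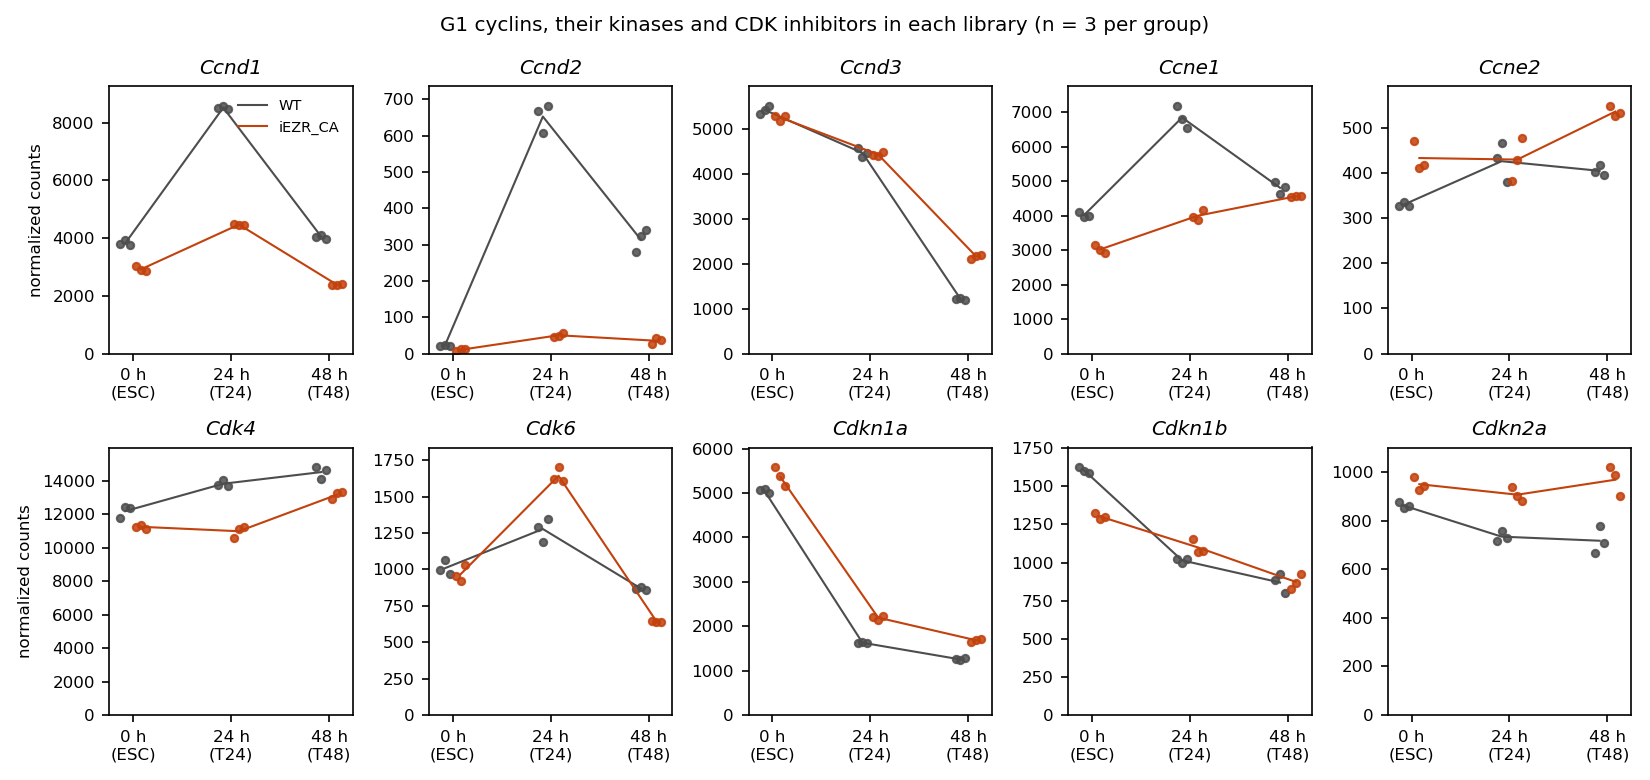
Normalized counts (linear axes from 0) of the 10 genes at 0, 24 and 48 h in WT (grey) and iEZR_CA (orange) cells. Points are single libraries (n = 3 per group) and lines join group means. Ccnd1 and Ccnd2 are highest at T24 in both lines and Ccne1 at T24 in WT and at T48 in iEZR_CA cells, and Cdk6 is above WT in all iEZR_CA libraries at T24 and below in all at T48.

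**Figure D2:**
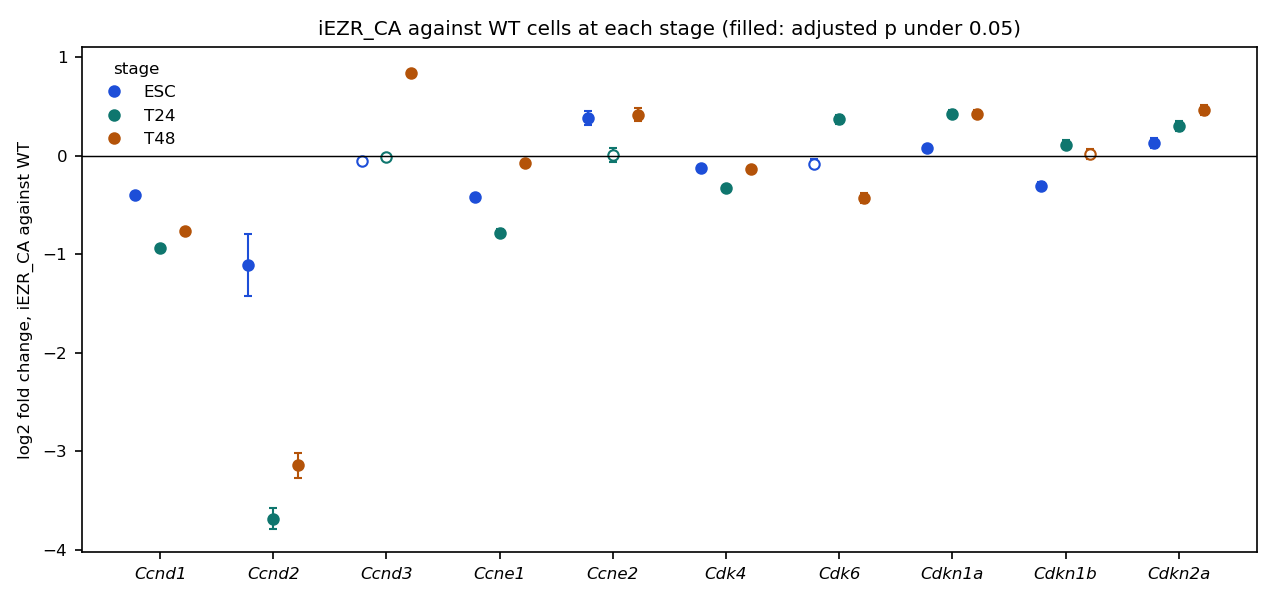
Log2 fold changes of iEZR_CA against WT cells by gene and stage, with standard errors from edgeR. Filled points passed an adjusted p of 0.05 and open points did not. Ccnd2 lies far below the others, at -3.68 at T24 and -3.14 at T48.

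Per unit of length, the kinase Cdk4 was the most abundant of the 10 transcripts in every group, with mean TPM from 489 ± 5.5 in iEZR_CA ESCs to 660 ± 18 in WT cells at T48 (SD, n = 3). Ccnd2 was the least abundant in every group by this length, that of all annotated exons, from 0.154 ± 0.034 TPM in iEZR_CA ESCs to 10.1 ± 0.63 TPM in WT cells at T24. In WT ESCs the order of mean TPM was Cdk4, Ccne1, Cdkn1a, Ccnd1, Cdkn2a, Ccnd3, Cdkn1b, Ccne2, Cdk6 and Ccnd2. Ccne1 followed Cdk4 in all groups but iEZR_CA ESCs, where Cdkn1a at 214 ± 6.0 TPM stood above Ccne1 at 160 ± 4.0 TPM. With coding lengths in place of exon lengths 47 places over the 6 groups changed and 13 did not. Cdk4 was still first in every group, but Ccne1 followed it in none, Ccnd3 stood above Ccnd1 in ESCs of both lines, and Ccnd2 was not the least abundant in WT cells at T24, with 704 ± 42 normalized counts per kb of coding sequence against 351 ± 36 for Ccne2. At T48 in WT cells Ccnd2 and Ccne2 overlapped on that scale. Neighbours in the orders by exon length did not overlap in their 3 libraries except Ccnd1 and Ccnd3 in iEZR_CA ESCs and Ccne2 and Cdk6 in iEZR_CA cells at T24.

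Ccnd2 (ENSMUSG00000000184, chr6:127125162-127152193, minus strand of GRCm38), the D-type cyclin induced by many growth signals, had the largest change of the 10 genes from ESC to T24 in both lines and the largest difference between the lines at every stage. In WT cells its normalized counts were 21.4, 23.7 and 21.3 in ESCs, 668, 609 and 683 at T24, and 279, 323 and 340 at T48. In iEZR_CA cells they were 7.75, 11.7 and 11.2 in ESCs, 45.9, 47.9 and 57.2 at T24, and 25.1, 43.1 and 37.2 at T48. At each stage every WT library was above every iEZR_CA library. WT cells raised Ccnd2 28.9-fold from ESC to T24 (log2 4.85 ± 0.12 SE, edgeR adjusted p = 1.4e-44) and iEZR_CA cells 4.85-fold (log2 2.28 ± 0.26, edgeR adjusted p = 1e-11). The difference between those rises was -2.58 ± 0.40 on the log2 scale by the test of line and time together (edgeR adjusted p = 1.6e-07). Ccnd2 was therefore 12.9-fold lower in iEZR_CA cells at T24 (log2 -3.68 ± 0.11, edgeR adjusted p = 1.3e-40) and 8.82-fold lower at T48 (log2 -3.14 ± 0.13, edgeR adjusted p = 1.9e-32). The 2.15-fold lower level in iEZR_CA ESCs (log2 -1.11 ± 0.31, edgeR adjusted p = 0.0017) rests on few reads, 7 to 14 per library against 19 to 31 in WT ESCs. The rises from ESC to T24 and the difference between them start from these same low counts. From T24 to T48 Ccnd2 fell by 1.07 ± 0.08 on the log2 scale in WT cells. In iEZR_CA cells the value was -0.52 ± 0.19 (edgeR adjusted p = 0.013), which no longer passed without iEZR_CA T24 replicate 3 (-0.42), without iEZR_CA T48 replicate 1 (-0.32) or with library sizes set by the spike-in RNA (-0.43).

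Ccnd1 (ENSMUSG00000070348, chr7:144929931-144939925, minus strand), the D-type cyclin most closely tied to ERK signaling, rose to T24 and was lower again at T48. WT libraries had 3791, 3934 and 3753 normalized counts in ESCs, 8506, 8584 and 8474 at T24, and 4054, 4117 and 3981 at T48. iEZR_CA libraries had 3026, 2878 and 2852 in ESCs, 4501, 4464 and 4445 at T24, and 2378, 2362 and 2413 at T48. The lines did not overlap at any stage, and at T24 the iEZR_CA libraries were little above the WT level in ESCs. The rise to T24 was 2.21-fold in WT cells (log2 1.14 ± 0.03, edgeR adjusted p = 8.3e-46) and 1.53-fold in iEZR_CA cells (log2 0.61 ± 0.03, edgeR adjusted p = 9.2e-29), which differed by -0.53 ± 0.04 (edgeR adjusted p = 3.4e-18). Ccnd1 was lower in iEZR_CA cells by 0.40 ± 0.03 on the log2 scale in ESCs, by 0.93 ± 0.03 at T24 (1.91-fold, edgeR adjusted p = 3.2e-40) and by 0.76 ± 0.03 at T48 (1.69-fold, edgeR adjusted p = 2.1e-33). At T48 the level in WT cells was 0.06 ± 0.03 above that in ESCs (edgeR adjusted p = 0.036), a call that ended in 7 of 18 fits that left out a library, the lowest value of these being 0.05 without WT ESC replicate 1 or 3, with no filter on low counts (0.034) and in a fit of the compared groups only (0.06). With library sizes set by the spike-in RNA it passed, at 0.33. In iEZR_CA cells it was 0.29 ± 0.03 below that in ESCs, or 0.04 below (edgeR adjusted p = 0.82) with spike-in library sizes.

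Ccnd3 (ENSMUSG00000034165, chr17:47505051-47599691, plus strand), the third D-type cyclin, followed another course and fell over time. In WT cells it had 5350, 5430 and 5523 normalized counts in ESCs, 4576, 4379 and 4464 at T24, and 1223, 1245 and 1191 at T48. In iEZR_CA cells it had 5306, 5181 and 5306 in ESCs, 4423, 4407 and 4483 at T24, and 2110, 2182 and 2207 at T48. The lines were close in ESCs (log2 -0.05 ± 0.03, edgeR adjusted p = 0.095) and overlapped at T24 (log2 -0.01 ± 0.03, edgeR adjusted p = 0.75), and every iEZR_CA library was above every WT library at T48. From T24 to T48 Ccnd3 fell 3.69-fold in WT cells (log2 -1.88 ± 0.03) and 2.05-fold in iEZR_CA cells (log2 -1.03 ± 0.03), a difference of 0.85 ± 0.04 between the lines (edgeR adjusted p = 3.1e-26). At T48 it was 1.79-fold higher in iEZR_CA cells (log2 0.84 ± 0.03, edgeR adjusted p = 1.3e-32). A processed pseudogene, Ccnd3-ps (chr4:139345300-139346180), had 7.11% to 8.09% as many normalized counts as Ccnd3 and the same course, so reads of the gene and the pseudogene cannot be told apart with certainty.

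The make-up of the D-type cyclin transcripts shifted with these changes. On the TPM scale, Ccnd1 made up 56.6% ± 0.79 (SD, n = 3) of the summed D-type transcripts in WT ESCs, 75.8% ± 0.56 at T24 and 83.3% ± 0.25 at T48. In iEZR_CA cells its share was 50.8% ± 0.75, 65.0% ± 0.34 and 66.9% ± 0.54. Ccnd3 gave most of the rest, with 43.2%, 21.3% and 13.5% in WT cells and 49.1%, 34.6% and 32.6% in iEZR_CA cells, while Ccnd2 never passed 3.23% in WT or 0.493% in iEZR_CA group means. The summed level was 206 ± 2.4, 348 ± 1.4 and 153 ± 1.6 TPM in WT cells and 173 ± 2.3, 217 ± 0.35 and 112 ± 1.6 TPM in iEZR_CA cells. For each of these shares and sums the 3 libraries of the lines were fully separated at every stage, with a two-sided exact permutation p of 0.1, the smallest that 3 against 3 allows. Lengths of all annotated exons were used, and coding lengths alone put the Ccnd1 share at 44.0% in WT ESCs and 38.3% in iEZR_CA ESCs. Coding lengths also gave Ccnd2 a larger share. In WT cells at T48 it had 339 normalized counts per kb of coding sequence, beside 4577 for Ccnd1 and 1228 for Ccnd3. In iEZR_CA cells at T48 these values were 37.9, 2694 and 2182.

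**Figure D3:**
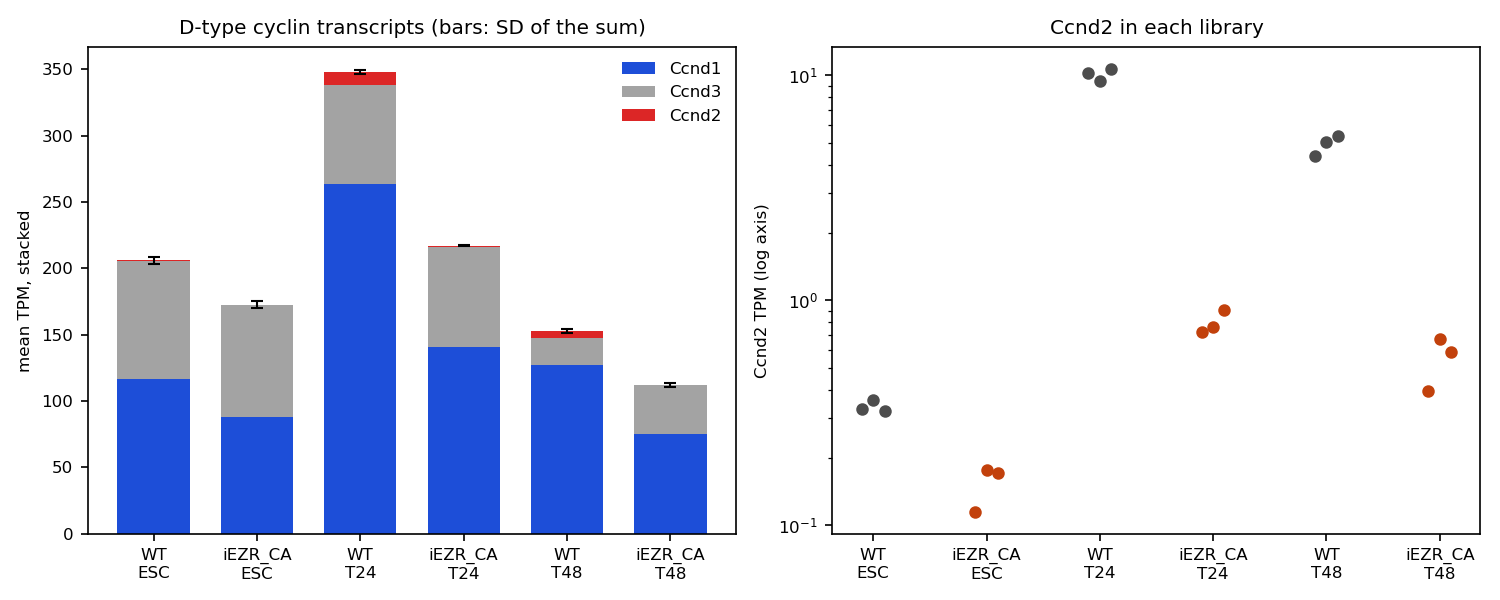
Left, mean TPM of Ccnd1, Ccnd3 and Ccnd2 stacked by group (linear axis from 0), with the SD of their sum over 3 libraries. Right, TPM of Ccnd2 in each library on a log axis, WT in grey and iEZR_CA in orange. The sum is highest in WT cells at T24, 348 TPM, and Ccnd2 is lower in iEZR_CA than in WT libraries at each stage.

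Of the E-type cyclins, which activate CDK2, Ccne1 (ENSMUSG00000002068, chr7:38097984-38107534, minus strand) was by far the more abundant, with 94.0% to 95.5% of their summed TPM in WT groups and 90.2% to 92.5% in iEZR_CA groups. Its normalized counts in WT libraries were 4115, 3958 and 3990 in ESCs, 7193, 6825 and 6540 at T24, and 4977, 4629 and 4834 at T48. In iEZR_CA libraries they were 3137, 3003 and 2918 in ESCs, 3963, 3883 and 4159 at T24, and 4544, 4582 and 4567 at T48. WT cells thus had their highest values at T24 and iEZR_CA cells at T48, and the lines were separate at all stages, though narrowly at T48. Ccne1 rose 1.70-fold to T24 in WT cells (log2 0.76 ± 0.03) and fell by 0.51 ± 0.03 from T24 to T48, whereas in iEZR_CA cells it rose by 0.40 ± 0.03 and then by 0.19 ± 0.03. The difference between the lines in the second step was 0.70 ± 0.04 (edgeR adjusted p = 4.5e-21). Ccne1 was lower in iEZR_CA cells by 0.42 ± 0.03 in ESCs and by 0.78 ± 0.03 at T24 (edgeR adjusted p = 5.9e-31). At T48 the difference was -0.07 ± 0.03 (edgeR adjusted p = 0.037), a call that ended in 6 of 18 fits that left out a library, of which the one without WT T48 replicate 1 gave the value nearest 0 (-0.06). It also ended with no filter on low counts (-0.044), with DESeq2's test (-0.08) and with library sizes set by the spike-in RNA (-0.02).

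Ccne2 (ENSMUSG00000028212, chr4:11191351-11204779, plus strand) was the minor E-type cyclin. Its normalized counts were 327, 335 and 327 in WT ESCs, 433, 465 and 380 at T24, and 401, 417 and 396 at T48, against 472, 410 and 417, then 383, 429 and 476, then 549, 525 and 534 in iEZR_CA cells. iEZR_CA libraries were all above WT libraries in ESCs and at T48 and overlapped with them at T24. The log2 differences were 0.38 ± 0.07 in ESCs (edgeR adjusted p = 6.4e-06), 0.01 ± 0.07 at T24 (edgeR adjusted p = 0.93) and 0.42 ± 0.07 at T48 (edgeR adjusted p = 1.7e-07). The sign was thus opposite to that of Ccne1 in ESCs and at T48. Summed E-type TPM was lower in iEZR_CA cells in ESCs (178 against 231) and at T24 (242 against 393), with an exact permutation p of 0.1 each, and the lines overlapped at T48 (277 against 284, exact permutation p = 0.4).

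The kinases that D-type cyclins activate took separate courses. Cdk4 (ENSMUSG00000006728, chr10:127063534-127067920, plus strand) had 11735, 12404 and 12385 normalized counts in WT ESCs, 13709, 14039 and 13679 at T24, and 14789, 14120 and 14603 at T48. The iEZR_CA libraries had 11228, 11354 and 11128 in ESCs, 10593, 11105 and 11220 at T24, and 12872, 13266 and 13311 at T48, below WT libraries at each stage. The log2 difference was -0.12 ± 0.03 in ESCs, -0.33 ± 0.03 at T24 (edgeR adjusted p = 6.8e-18) and -0.14 ± 0.03 at T48. With library sizes set by the spike-in RNA the values were -0.07, -0.26 and -0.08, each with an SE of 0.12, and none passed. In WT cells Cdk4 rose by 0.17 ± 0.03 to T24, while in iEZR_CA cells the value was -0.04 ± 0.03 (edgeR adjusted p = 0.23), and the lines differed in this step by -0.21 ± 0.04 (edgeR adjusted p = 4.4e-06). The step from T24 to T48 in WT cells, 0.07 ± 0.03, lost its call without WT T24 replicate 3 or WT T48 replicate 1, with 0.06 in each case, with no filter on low counts (0.044) and with library sizes set by the spike-in RNA (0.19).

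Cdk4 is a classical target of MYC, which binds the E-box CACGTG, and the 250 bases before its annotated start (chr10:127063285-127063534, plus strand, RefSeq on GRCm38.p6) hold 4 copies of these letters, shown in capitals because the transcripts of MYC genes are described below:
Cdk4: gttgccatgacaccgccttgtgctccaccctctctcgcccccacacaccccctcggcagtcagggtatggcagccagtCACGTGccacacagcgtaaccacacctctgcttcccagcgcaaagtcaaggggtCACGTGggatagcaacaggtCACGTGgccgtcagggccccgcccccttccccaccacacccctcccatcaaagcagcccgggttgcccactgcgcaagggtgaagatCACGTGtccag
The motif reads the same on both strands, and 6.02% of 32851 such windows of all genes hold it at least once. RefSeq windows were found for 7 of the 10 genes (10 windows in all), but not for Ccnd1, Ccnd2 and Ccne2. Besides the Cdk4 window, that of Cdk6 held 1 copy and the others none. TTTNGCGC, a core motif of E2F factors, was found in 1.13% of all windows on either strand and among the members only once, in a window of Cdkn2a. A match in letters is not a bound site.

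Cdk6 (ENSMUSG00000040274, chr5:3341485-3531008, plus strand), the other partner of D-type cyclins, was higher in iEZR_CA cells at T24 and lower at T48. Its normalized counts were 997, 1061 and 966 in WT ESCs and 951, 922 and 1028 in iEZR_CA ESCs, 1291, 1191 and 1349 against 1621, 1701 and 1606 at T24, and 867, 880 and 861 against 646, 642 and 642 at T48. The lines overlapped in ESCs, iEZR_CA libraries were all higher at T24 and all lower at T48. The log2 differences were -0.08 ± 0.05 in ESCs (edgeR adjusted p = 0.17), 0.37 ± 0.04 at T24 (edgeR adjusted p = 1.7e-11) and -0.43 ± 0.05 at T48 (edgeR adjusted p = 4.9e-11). Cdk6 fell 2.56-fold from T24 to T48 in iEZR_CA cells and 1.47-fold in WT cells, a difference of -0.80 ± 0.07 on the log2 scale (edgeR adjusted p = 2e-16). Over the whole 48 h, WT cells had a log2 change of -0.23 ± 0.05, which became 0.031 with library sizes set by the spike-in RNA.

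Among the inhibitors, Cdkn1a (ENSMUSG00000023067, chr17:29090976-29100727, plus strand), which encodes p21, fell most. Its normalized counts were 5061, 5093 and 4999 in WT ESCs, 1617, 1646 and 1624 at T24, and 1251, 1229 and 1276 at T48. In iEZR_CA libraries they were 5581, 5379 and 5152, then 2210, 2142 and 2231, then 1654, 1686 and 1712. Every iEZR_CA library was above every WT library of its stage. From ESC to T24 Cdkn1a fell 3.13-fold in WT cells (log2 -1.64 ± 0.03, edgeR adjusted p = 3.5e-51) and 2.46-fold in iEZR_CA cells (log2 -1.30 ± 0.03, edgeR adjusted p = 1.5e-45), a difference between the lines of 0.35 ± 0.04 (edgeR adjusted p = 1.5e-09). From T24 to T48 it fell by 0.38 ± 0.04 in WT and by 0.38 ± 0.03 in iEZR_CA cells, and the difference between the lines in this step was -0.00 ± 0.05 (edgeR adjusted p = 0.98). It was higher in iEZR_CA cells by 0.43 ± 0.03 at T24 (edgeR adjusted p = 6.4e-18) and by 0.43 ± 0.04 at T48 (edgeR adjusted p = 9.1e-17). The ESC value of 0.08 ± 0.03 lost its call without iEZR_CA ESC replicate 1 (0.06) or 2 (0.08), with no filter on low counts (0.07) and with spike-in library sizes (0.14).

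Cdkn1a is also the best known transcriptional target of p53, and the 250 bases before its upstream start (chr17:29090729-29090978, plus strand, RefSeq on GRCm38.p6) hold a 14-letter core motif of p53 (CATG at each end, with fixed and free letters between) once, in capitals here:
Cdkn1a: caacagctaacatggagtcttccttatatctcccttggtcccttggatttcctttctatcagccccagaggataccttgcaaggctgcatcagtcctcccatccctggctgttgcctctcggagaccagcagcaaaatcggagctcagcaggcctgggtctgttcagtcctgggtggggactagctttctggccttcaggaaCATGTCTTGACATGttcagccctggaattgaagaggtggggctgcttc
This motif, searched on both strands, occurs in 10 of 32851 windows (0.0304%) and in no other window of the members. The RefSeq starts behind the Cdk4 and Cdkn1a windows lie slightly after the gene starts given here, so each window reaches just into the gene.

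Cdkn1b (ENSMUSG00000003031, chr6:134920401-134925513, plus strand), which encodes p27, also fell on exit. WT libraries had 1625, 1601 and 1591 normalized counts in ESCs, 1027, 994 and 1023 at T24, and 885, 925 and 798 at T48, and iEZR_CA libraries had 1323, 1287 and 1299, then 1155, 1067 and 1079, then 830, 865 and 927. The lines were separate in ESCs, with WT higher, and at T24, with iEZR_CA higher, and overlapped at T48. The log2 differences were -0.31 ± 0.04 in ESCs (edgeR adjusted p = 4.5e-09), 0.11 ± 0.05 at T24 (edgeR adjusted p = 0.033) and 0.02 ± 0.05 at T48 (edgeR adjusted p = 0.73). The 22 tested genes within 2.5 Mb of Cdkn1b had a median difference of 0.29 at T24, above that of Cdkn1b itself. With spike-in library sizes the ESC value was -0.25 and did not pass. The T24 call ended without WT T24 replicate 2 (0.09), without iEZR_CA T24 replicate 1 (0.08), with no filter on low counts (0.12), with DESeq2's test (0.11) and with spike-in library sizes (0.19). The fall from ESC to T24 was 0.67 ± 0.04 on the log2 scale in WT cells and 0.25 ± 0.05 in iEZR_CA cells, which differed by 0.42 ± 0.06 (edgeR adjusted p = 8e-08).

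Cdkn2a (ENSMUSG00000044303, chr4:89274471-89294653, minus strand), the gene of p16 and p19ARF, had smaller log2 changes than Cdkn1a and Cdkn1b in each step in each line. Its normalized counts were 877, 851 and 861 in WT ESCs, 716, 760 and 728 at T24, and 665, 778 and 710 at T48, against 981, 927 and 945, then 940, 901 and 882, then 1020, 987 and 901 in iEZR_CA cells. iEZR_CA libraries were higher at each stage with no overlap. The log2 difference was 0.13 ± 0.05 in ESCs (edgeR adjusted p = 0.018), 0.30 ± 0.05 at T24 (edgeR adjusted p = 3.7e-07) and 0.47 ± 0.05 at T48 (edgeR adjusted p = 1.3e-12). The ESC call ended without WT ESC replicate 2 (0.12) or iEZR_CA ESC replicate 1 (0.11), with no filter on low counts (0.12), with DESeq2's test (0.14) and with spike-in library sizes (0.19). WT cells had a fall of 0.24 ± 0.05 to T24, which was 0.11 (edgeR adjusted p = 0.53) with spike-in library sizes, and a log2 change of -0.06 ± 0.05 after it (edgeR adjusted p = 0.37). In iEZR_CA cells the changes were -0.07 ± 0.05 (edgeR adjusted p = 0.21) and 0.11 ± 0.05 (edgeR adjusted p = 0.049), and the latter did not pass with 15 of 18 libraries left out in turn, with 0.06 without iEZR_CA T48 replicate 1, nor with DESeq2 size factors (0.11), no filter on low counts (0.10), DESeq2's test (0.10) or spike-in library sizes (0.20).

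Taking the genes by step, in WT cells all 10 changed from ESC to T24, against 65.4% of all genes, with 6 rising where 31.8% of all genes rose (the D-type cyclins Ccnd1 and Ccnd2, both E-type cyclins and both kinases) and 4 falling where 33.6% fell (Ccnd3 and the 3 inhibitors). From T24 to T48 in WT cells 8 changed, against 65.7% of all genes, with 1 rise (Cdk4, against 32.8%) and 7 falls (against 32.9%). In iEZR_CA cells 7 changed from ESC to T24, against 56.0% of all genes, with 4 rises (27.1%), 3 falls (28.9%) and Ccne2, Cdk4 and Cdkn2a not called. From T24 to T48 all 10 changed in iEZR_CA cells, against 59.6%, with 4 rises (29.6%) and 6 falls (30.0%). Over the whole 48 h, 10 changed in WT cells (74.5% of all genes) and 9 in iEZR_CA cells (70.1%). The change over time differed between the lines for 9 genes from ESC to T24, 7 from T24 to T48 and 8 over 48 h, where 38.3%, 46.2% and 45.8% of all genes differed. Both steps share the T24 libraries of a line, and no relation between them is drawn. With library sizes set by the spike-in RNA the median of all genes rose by 0.13 in each step in WT cells and by 0.14 and 0.10 in iEZR_CA cells, so the changes over time given here are relative to the bulk of transcripts. On that scale the falls of Ccnd3 and Cdkn2a to T24 in WT cells, of Ccnd3 and Cdkn1b to T24 in iEZR_CA cells, and of Cdkn1a and Cdkn1b from T24 to T48 in both lines kept their sign and did not pass. Of the differences between the lines in change over time, those of Ccnd1 and Ccnd2 from ESC to T24, of Ccnd3, Ccne1 and Cdk6 from T24 to T48, and of Ccnd2 and Ccnd3 over 48 h passed there. Among all 18469 genes 2416, 3761 and 3881 passed there, in the same order.

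**Figure D4:**
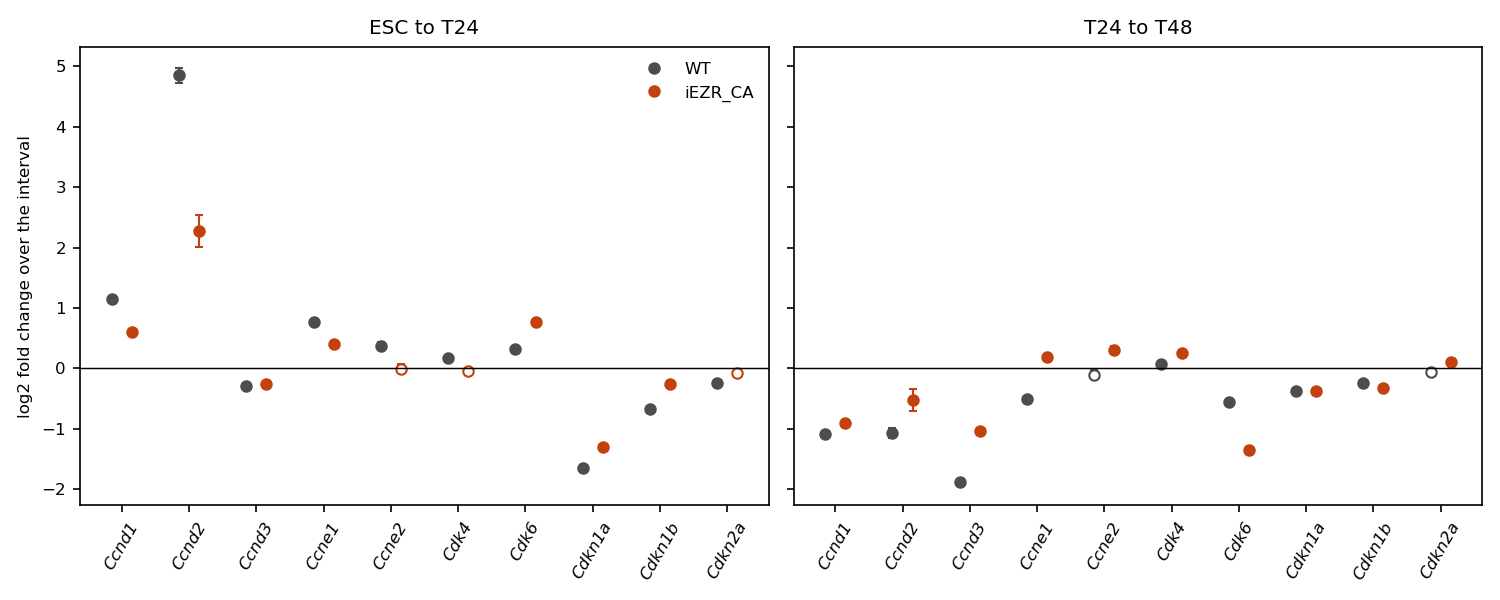
Log2 fold changes of the 10 genes from ESC to T24 (left) and from T24 to T48 (right) in WT (grey) and iEZR_CA (orange) cells, with standard errors from edgeR. Filled points passed an adjusted p of 0.05. Ccnd2 rises by 4.85 in WT and 2.28 in iEZR_CA cells in the first step, and Ccnd3 and Cdk6 show the widest gaps between the lines in the second.

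Other genes of the pathway were taken from lists written from general knowledge. The counts of called list genes stand against 26.4% of all genes called above WT and 28.1% below in ESCs, 30.8% and 30.1% at T24, and 31.0% and 30.1% at T48. With spike-in library sizes 25 of 45 counts of called list genes moved by more than 1.5 times, for instance from 10 to 6 RB and E2F genes in ESCs. Among 4 other CDK inhibitors, iEZR_CA cells had 1 above WT in ESCs, 2 above and 1 below at T24, and 3 above and 1 below at T48. Cdkn2c, which encodes the INK4 inhibitor p18, had 22.5 ± 6.7 normalized counts in WT and 67.6 ± 6.4 in iEZR_CA cells at T48 (log2 1.49 ± 0.20). Cdkn2b, which encodes p15, had 131 ± 18 and 222 ± 2.7 (log2 0.76 ± 0.10). Cdkn1c, the CIP/KIP inhibitor p57, was the lower one, with 121 ± 12 in WT and 46.8 ± 5.5 in iEZR_CA cells at T24 (log2 -1.37 ± 0.15) and a rise over 48 h in both lines (log2 3.06 ± 0.20 in WT and 2.96 ± 0.22 in iEZR_CA cells).

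Of 13 RB and E2F genes, iEZR_CA cells had 2 above and 8 below WT in ESCs, 3 and 8 at T24, and 7 and 4 at T48, with median log2 differences of -0.23, -0.22 and 0.13. Those that passed with spike-in library sizes were 1 above and 5 below in ESCs, 3 above and 4 below at T24, and 5 above and 2 below at T48. E2f1, an activator of S-phase genes, fell by 1.35 ± 0.05 on the log2 scale over 48 h in WT cells, from 2027 ± 98 to 784 ± 81 normalized counts, and by 0.48 ± 0.05 in iEZR_CA cells, from 1433 ± 55 to 1030 ± 83. E2f2, another activator, had 183 ± 12 in WT and 366 ± 17 in iEZR_CA cells at T48 (log2 0.98 ± 0.08), and Rbl2, the RB relative p130, had 122 ± 14 and 218 ± 16 (log2 0.84 ± 0.10). Rb1 was lower in iEZR_CA cells at all stages (log2 -1.44 ± 0.08, -1.03 ± 0.06 and -0.54 ± 0.07), with 451 ± 24 normalized counts in WT and 167 ± 4.2 in iEZR_CA ESCs. The 13 tested genes within 2.5 Mb of Rb1 on chromosome 14 had median differences of -0.99, -0.97 and -0.95 at the same stages, so the low value is shared by its surroundings. Over 427 tested genes of chromosome 14 the medians were -0.30, -0.35 and -0.24. Rbl2, E2f4 and Tfdp1 lie on chromosome 8, where 683 tested genes had medians of 0.19, 0.24 and 0.20. The part of these shifts in the counts above and below WT was not tested. E2f8, a repressor of E2F targets, was lower by 1.02 ± 0.06 in ESCs and by 1.04 ± 0.04 at T24, where its 15 neighbours had medians of -0.52 and -0.44. For the 10 G1 genes the medians of their neighbours lay between -0.14 and 0.29 over the 3 stages, the highest being that of Cdkn1b at T24.

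Of 20 replication genes, which E2F factors switch on, 2 were above and 16 below WT at T24 with a median log2 difference of -0.18. With spike-in library sizes 1 of the 20 passed at T24, and it lay below WT. There were 6 above and 7 below in ESCs (median 0.01) and 9 above and 4 below at T48 (median 0.07). The shifts were small. The lowest named values at T24 were -0.42 ± 0.14 for Fen1 and -0.36 ± 0.02 for Mcm6, a subunit of the replicative helicase. Above WT were Mcm5 at 0.12 ± 0.02 and Cdc6, which loads that helicase, at 0.08 ± 0.03. The 12 tested genes within 2.5 Mb of Mcm5 on chromosome 8 had a median difference of 0.24 at T24, above that of Mcm5 itself. The median of 683 tested genes of that chromosome was also 0.24. From ESC to T24, 14 of 20 rose and 3 fell in WT cells, where 31.8% of all genes rose and 33.6% fell, and 6 rose and 6 fell in iEZR_CA cells (27.1% and 28.9%). Of 20 mitosis genes, 3 lay above and 10 below WT in ESCs, 2 and 11 at T24, and 9 and 4 at T48, with medians of -0.06, -0.09 and 0.01. With spike-in library sizes 1 mitosis gene passed in ESCs and lay above WT, 1 lay above and 1 below at T24, and all 3 that passed at T48 lay above. Kif23, a kinesin of cytokinesis, was higher by 0.49 ± 0.03 at T24 and Top2a, a topoisomerase, lower by 0.41 ± 0.02. Among 6 partners and activators of CDK2, 1 lay above and 1 below in ESCs, 2 lay below at T24, and 2 lay above and 1 below at T48. The 1 that passed with spike-in library sizes lay above WT at T48, and without WT ESC replicate 3 or WT T48 replicate 2 the T24 split became 2 above and 2 below. Cdk2 itself fell over 48 h by 1.10 ± 0.03 in WT and by 0.83 ± 0.03 in iEZR_CA cells. Of 9 genes for the turnover of G1 regulators, 4 lay above and 5 below in ESCs, 3 and 6 at T24, and 3 and 4 at T48. On the spike-in scale 2 lay above and 2 below in ESCs, 1 and 2 at T24, and 1 and 1 at T48. Cks1b, which helps the SKP2 ligase to mark p27 for destruction, rose over 48 h by 0.92 ± 0.03 in WT and by 0.83 ± 0.03 in iEZR_CA cells and was lower in iEZR_CA cells at T24 by 0.38 ± 0.03. Skp1a was lower there too, by 0.37 ± 0.03, while Rbx1 was higher by 0.31 ± 0.04 and Skp2 itself by 0.17 ± 0.04. Turnover of p27 was not measured.

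MYC is a known inducer of Ccnd2 and Cdk4, and its part in their levels here was not tested. Transcripts of the 3 MYC genes and of their partner Max were lower in iEZR_CA cells for 3 of these 4 genes at each stage, with 1 higher at T24 and at T48. On the spike-in scale 1 passed in ESCs, 2 at T24 and 3 at T48, all of them lower. Myc had 154 ± 32, 2204 ± 16 and 1288 ± 85 normalized counts in WT cells and 71.7 ± 12, 695 ± 21 and 787 ± 38 in iEZR_CA cells, which gave log2 differences of -1.14 ± 0.13, -1.67 ± 0.05 and -0.69 ± 0.06. Mycn had 6325 ± 191 in WT and 2633 ± 139 in iEZR_CA cells at T24 (log2 -1.27 ± 0.03). Of 10 ERK response genes, 3 lay above and 5 below WT in ESCs, 1 and 6 at T24, and 3 and 5 at T48, with median log2 differences of -0.18, -0.59 and -0.50. Egr1, an immediate early factor, had 268 ± 33 normalized counts in WT and 24.2 ± 7.7 in iEZR_CA cells at T24 (log2 -3.40 ± 0.15), and Dusp6, a phosphatase that turns ERK off, had 3732 ± 63 and 1570 ± 66 at T48 (log2 -1.24 ± 0.04). Phlda1 went the other way at T48 (log2 1.37 ± 0.21). Of 18 p53 targets other than Cdkn1a, 5 lay above and 10 below in ESCs, 6 and 8 at T24, and 7 and 6 at T48, with medians of -0.15, -0.10 and -0.03. With spike-in library sizes 2 of these lay above and 5 below in ESCs, all 4 that passed at T24 lay above, and 5 lay above and 3 below at T48. Perp, a membrane protein, was higher by 0.85 ± 0.10 at T24 and Aen, a nuclease, by 0.58 ± 0.03 at T48, while Gdf15, a secreted factor, was lower by 1.63 ± 0.13 at T48. Among the 8 below WT at T24, against 6 above, were Bbc3 at -0.36 ± 0.05 and Sesn2 at -0.34 ± 0.03. Over 48 h in WT cells 14 of the 18 fell and 2 rose, where 74.5% of all genes changed and 49.8% of those rose, and with spike-in library sizes 7 fell and 3 rose. In iEZR_CA cells 13 fell and 5 rose, where 70.1% of all genes changed and 50.1% of those rose. The medians over all genes were within 0.01 of 0 in these comparisons of the lines.

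**Figure D5:**
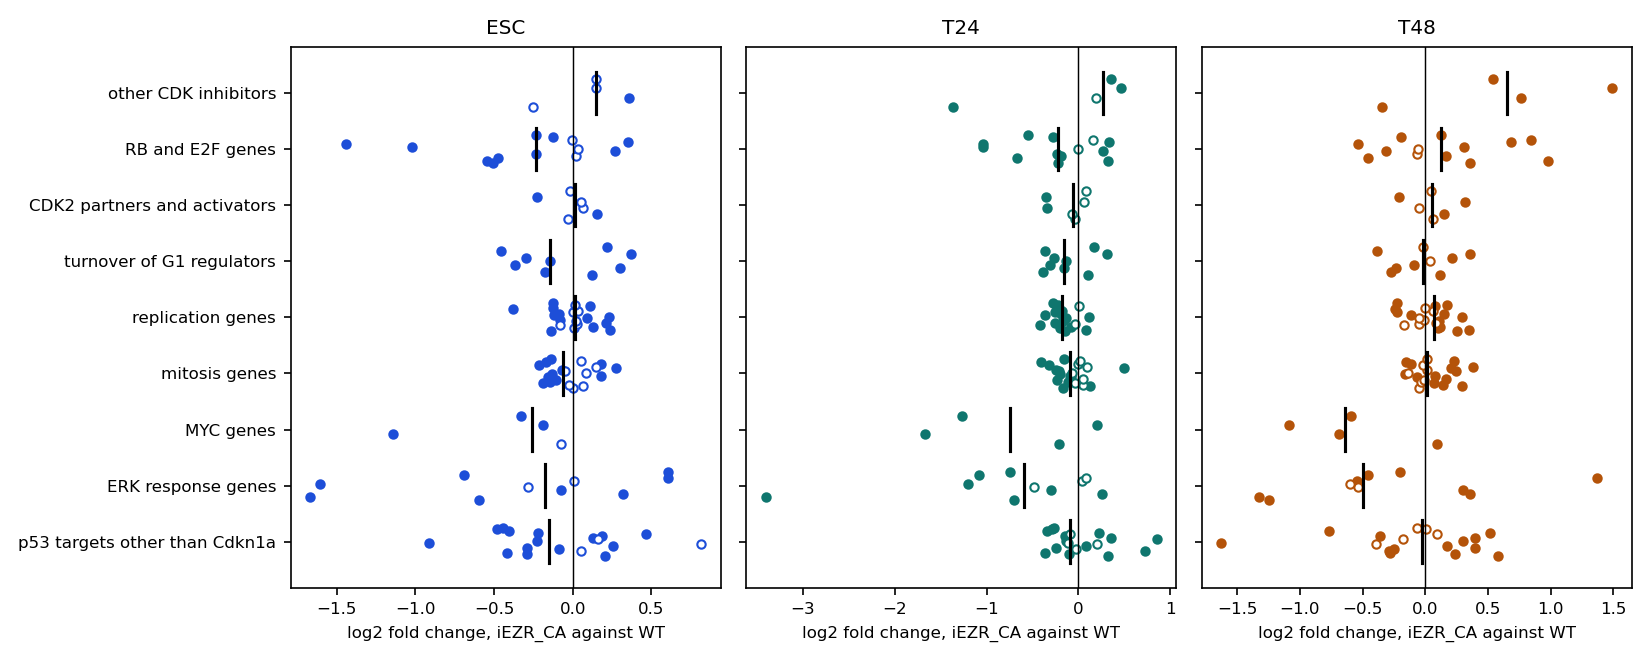
Log2 differences of iEZR_CA against WT cells for each tested gene of 9 lists in ESCs, at T24 and at T48. Each point is a gene, filled where its adjusted p by edgeR was under 0.05, and black bars are list medians. MYC and ERK response genes lie lowest at T24, with medians of -0.74 and -0.59, and the other CDK inhibitors lie highest at T48, with a median of 0.65.

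The genes with the course most like each member were found by Pearson correlation of log2 CPM (reads scaled to library size) over the 18 libraries, among 12800 genes with a mean of at least 50 normalized counts. The 18 libraries fall into 6 groups, so that these values describe likeness of 6 group means. Ccnd1 was most like Ssr2 (r = 0.955), Resf1 and Rragc, Ccnd2 most like Srbd1 (0.984), Etl4 and Ndnf, and Ccnd3 most like Rnf216 (0.994), its pseudogene and Sox2 (0.991). Ccne1 was most like Gm21411 (0.975), Pex7 and Gm17771, and Ccne2 most like Wdr77 (0.933), Kpna4 and Nt5c3. Cdk4 was most like Prmt1 (0.977), Rsl1d1 and Utp14a, and Cdk6 most like Nav1 (0.955), Zfp236 and Ddit4l. Cdkn1a was most like Kit (0.996), Pip4k2c and Slc39a1, Cdkn1b most like Zfp598 (0.987), Zfp628 and Naa80, and Cdkn2a most like Ktn1 (0.954), Gorasp2 and Rnpepl1. Among the 10 genes themselves the highest value was between Cdkn1a and Cdkn1b (0.914) and the lowest between Ccnd2 and Cdkn2a (-0.867).

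Exons of 4 members overlap those of a protein-coding gene on the opposite strand, and whether the counting used the strand is not given in the sources used here. Ccnd1 shares 1100 exon bases with LTO1, Cdk4 641 with Tspan31, Ccne2 609 with Ints8 and Ccnd3 361 with Bysl. LTO1 had 382 ± 34 normalized counts in WT ESCs and Tspan31 955 ± 4.4, far fewer than Ccnd1 and Cdk4. Ints8, with 1965 ± 136, was more abundant than Ccne2, and its log2 differences between the lines were -0.02 ± 0.04, -0.14 ± 0.04 and -0.06 ± 0.04 where those of Ccne2 were 0.38, 0.01 and 0.42. Bysl had 3330 ± 136 normalized counts in WT and 3861 ± 59 in iEZR_CA cells at T48 (log2 0.23 ± 0.03), more than Ccnd3 in both lines, whose log2 difference there was 0.84.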

How the data were processed

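The deposited values are raw read counts per gene, made by the authors: paired-end reads were trimmed with Trim Galore 0.6.5, aligned to mm10 (GRCm38) with GSNAP and counted with HTSeq on an Ensembl annotation, with replicates kept apart. Of 53801 genes, 53706 were found in GENCODE M21, and 92 spike-in sequences and 5 entries outside genes were left out of the library totals. Totals on genes ran from 10940752 to 33276622. Contrasts were fitted in R 4.3.3 with edgeR 4.0.16 (TMM, factors 0.975 to 1.03, filterByExpr by group, robust quasi-likelihood test over all 18 libraries with 6 group terms, 12 residual degrees of freedom, Benjamini-Hochberg over 18469 genes, threshold 0.05). Fold changes used a prior count of 0.125. Their standard errors were computed from the fold change and its F statistic. Normalized counts used DESeq2 1.42.0 size factors, and TPM the union of exons. Single values were compared by exact permutation, 3 libraries against 3. The fitting code was tested on simulated counts. Replicate pairs differed by more than counting noise.

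The 10 genes and all lists were chosen with earlier results of these data known. Named list genes are up to 2 with the largest rise and 2 with the largest fall among those called with a mean of at least 50 normalized counts at the comparisons of the lines and over 48 h in each line, and each member's 3 most alike genes. Replicate numbers follow accession order and only name libraries. Alternatives were DESeq2 size factors, spike-in library sizes, other count filters, DESeq2's Wald test, fits of the compared groups only, coding lengths, and leaving out each library, the last being added for the lists, and coding lengths for the order of levels, after seeing the data.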

Additional observations from a re-analysis of the deposited data

Results flagged for a closer look

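These results were singled out because the change over time differed between WT and iEZR_CA cells by edgeR's test of line and time together, and values are log2 changes in iEZR_CA minus those in WT cells. From ESC to T24 the difference was -0.53 for Ccnd1, -2.58 for Ccnd2, -0.36 for Ccne1, -0.37 for Ccne2 and -0.21 for Cdk4. It was 0.45 for Cdk6, 0.35 for Cdkn1a, 0.42 for Cdkn1b and 0.17 for Cdkn2a. From T24 to T48 it was 0.17 for Ccnd1, 0.54 for Ccnd2, 0.85 for Ccnd3, 0.70 for Ccne1, 0.41 for Ccne2, 0.19 for Cdk4 and -0.80 for Cdk6. Over 48 h it was -0.36 for Ccnd1, -2.03 for Ccnd2, 0.89 for Ccnd3, 0.34 for Ccne1, -0.35 for Cdk6, 0.35 for Cdkn1a, 0.33 for Cdkn1b and 0.33 for Cdkn2a.

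With spike-in library sizes the values of Ccnd1 and Ccnd2 from ESC to T24 still passed. So did those of Ccnd3, Ccne1 and Cdk6 from T24 to T48 and of Ccnd2 and Ccnd3 over 48 h. The other values above lost their call there. The Ccnd2 value from T24 to T48 did not pass without WT T48 replicate 1 (0.43), iEZR_CA T24 replicate 1 (0.50) or 2 (0.48), or iEZR_CA T48 replicate 2 (0.31) or 3 (0.52), and not with spike-in library sizes (0.51) or DESeq2's test (0.54). The Cdkn2a value from ESC to T24 was close to the threshold (edgeR adjusted p = 0.049) and did not pass in 8 of 18 fits that left out a library, with values of 0.15 to 0.18, nor with DESeq2 size factors (0.16), spike-in library sizes (0.19), no filter (0.19), the stricter filter (0.16) or DESeq2's test (0.16). The Cdkn2a value from T24 to T48, 0.16, passed without WT T48 replicate 2 (0.19), iEZR_CA T24 replicate 1 (0.19) or iEZR_CA T48 replicate 3 (0.21), and that of Cdkn1b, -0.09, passed without WT T48 replicate 3 (-0.16).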

How the results depend on the processing

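The counts of called members stayed within 1.5 times under DESeq2 size factors, both other count filters, DESeq2's Wald test, fits of the compared groups only and every left-out library, though Ccnd2 is not tested where at least 10 counts in every library are asked for. Spike-in library sizes, whose share varies between libraries, lowered the called members to 4 for iEZR_CA against WT ESCs, 5 for WT T48 against T24, 6 for iEZR_CA T48 against T24, and 2, 3 and 2 for the differences in change from ESC to T24, from T24 to T48 and over 48 h. Of all 18469 genes, 8823 and 6931 were called on that scale from T24 to T48 in WT and iEZR_CA cells. For the 3 differences in change these counts were 2416, 3761 and 3881. All genes called between the lines went from 10058, 11253 and 11282 to 5506, 7129 and 7229, and the share of higher calls from 50.6% to 61.1% at T24. Over 48 h the median of all genes was 0.27 in WT and 0.26 in iEZR_CA cells, the share of higher calls went from 49.8% to 66.3% and from 50.1% to 69.4%, and Cdk6 in WT cells turned to 0.031. Of 120 single values, 38 lost their call under spike-in sizes with their sign kept. The reversed Cdk6 value lost its call there too (edgeR adjusted p = 0.85). Calls were also lost by 8 values with no filter, 6 with DESeq2's test and 2 with DESeq2 size factors. The stricter filter and the fits of the compared groups only ended 1 each.

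List counts under spike-in sizes were, for ESC, T24 and T48, 6, 7 and 7 for RB and E2F genes, 0, 0 and 1 for CDK2 partners (edgeR; 0 and 2 at an unadjusted p under 0.05, and 2 and 2 by DESeq2, at ESC and T24), 4, 3 and 2 for turnover, 1, 1 and 2 for replication, 1, 2 and 3 for mitosis and 7, 4 and 8 for p53 targets. MYC genes gave 1 in ESCs and 2 at T24. Over 48 h the count in WT cells was 10 for mitosis, all higher (from 9 higher and 9 lower), 10 for p53 targets, and 6 for replication, 5 higher and 1 lower (from 4 and 14), and in iEZR_CA cells 6 for replication, 5 and 1 (from 5 and 10), and 2 for turnover. The stricter filter, which tests fewer genes, gave 1 and 2 for other CDK inhibitors at T24 and T48, 1 and 2 over 48 h in WT and iEZR_CA cells, and 5 in ESCs and 4 over 48 h in iEZR_CA cells for ERK response genes. With no filter, CDK2 partners over 48 h in WT cells gave 2. Leaving out single libraries gave 1 to 2 other CDK inhibitors in ESCs and 2 to 4 CDK2 partners at T24. Coding lengths put the Ccnd1 share at 44.0%, 64.9% and 74.5% in WT and 38.3%, 52.8% and 54.8% in iEZR_CA cells, which kept the order of the lines. The causes were not tested. No paired analysis was possible because the labels give no replicate numbers.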
